A study of Mus musculus with 2 samples.

Results

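The genes described here are 30 genes that mark macrophages and antigen-presenting cells. They are given by name and not by a value in these data, but were chosen with earlier results of these data known. All 30 were found among the 21911 protein-coding genes of the basic GENCODE M21 annotation on mm10 (GRCm38). DNase-seq maps open chromatin by sequencing DNA that the enzyme DNase I releases from nuclei. The tissue was the whole adrenal gland of males of B6CASTF1/J, aged 8 to 10 months, the F1 cross of C57BL/6J and CAST/EiJ, with no treatment named. The labels give 1 group of 2 replicates, each a pool of 6 biosamples and 1 library. Both pools carry the same donor identifier, so their spread may be technical, and with no second group there is no contrast and no test.

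Macrophages live in the adrenal gland among the steroid-producing cortex cells, the chromaffin cells of the medulla and a dense network of capillaries. In this lineage the ETS factor PU.1, encoded by Spi1, opens chromatin together with IRF8, C/EBP and MAF factors, and the kinase receptor encoded by Csf1r carries the survival signal of CSF1. Antigen-presenting cells load peptides on MHC class II molecules, whose genes share an upstream X box and Y box bound by RFX and NF-Y, with the coactivator CIITA. A whole gland mixes the chromatin of many cell types, so a weak peak from few open cells and a weak peak from many partly open cells cannot be told apart.

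Open chromatin was found at the promoters of 19 of the 30 genes in at least 1 pool, beside 14524 of all 21911 protein-coding genes. Most of the members' peaks were weak. A promoter peak is a peak of the authors' longer list that touches the interval within 1 kb of a transcription start site (TSS). It was present in both pools for 14 of the 30 genes (46.7%), against 61.9% of all protein-coding genes. Replicate 1 had a promoter peak at 18 of the 30 members and at 13786 of all 21911 genes. Replicate 2 had one at 15 members and at 14302 of all genes. The strongest promoter peak of each of the 14 genes had a median signal of 1.06 in replicate 1 and 1.16 in replicate 2, in the authors' units, whose scaling the sources do not state. Over all genes with a promoter peak in both pools the medians were 3.002 and 4.07. Maf was the one member above both of these medians. The authors' table of false discovery rates (FDR) for cleavage listed a value of 0.001 or lower in the promoter window in both pools for 7 members (23.3%), against 57.5% of all genes. The 7 were Maf, Irf8, Mertk, Cd14, H2-Aa, H2-Ab1 and Cd74. In 13 of the 14 genes the peaks of the pools overlapped, against 99.6% of all genes with a promoter peak in both. The exception was Itgam.

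**Figure D1:**
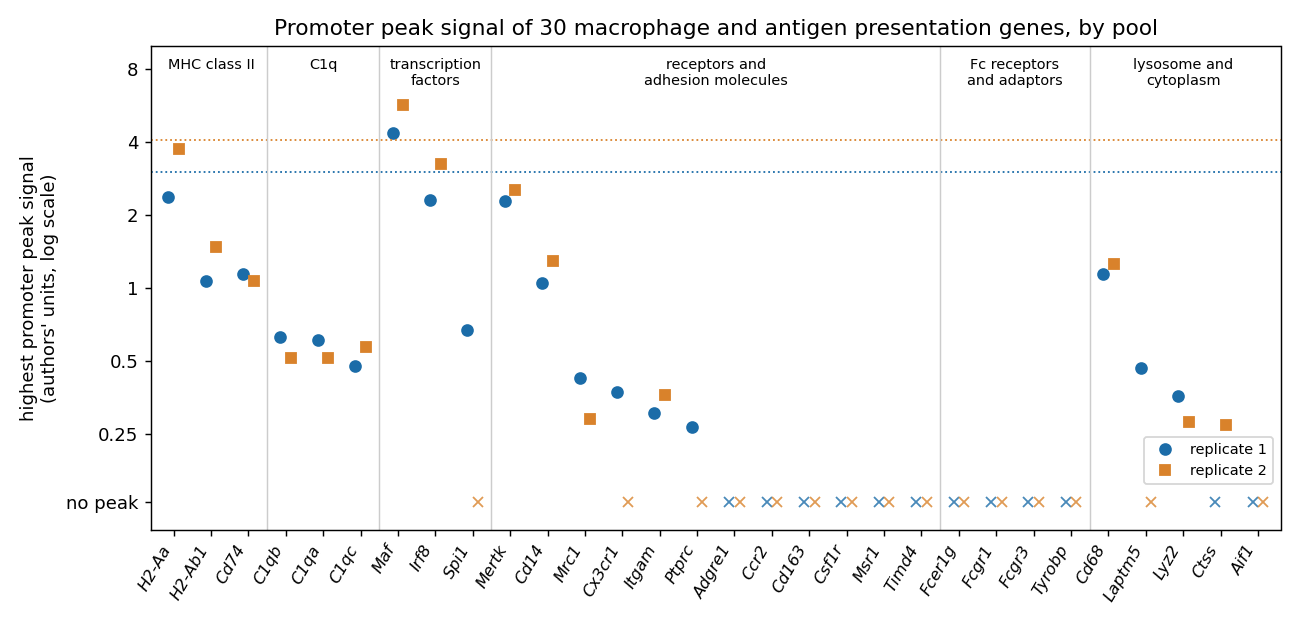
Highest promoter peak signal of each of the 30 genes in replicate 1 (circles) and replicate 2 (squares), in the authors' units on a log axis, grouped by role; crosses mark a pool without a promoter peak and dotted lines the median of all genes with a promoter peak in both pools. Maf lies above both lines, the MHC class II and C1q genes have a peak in both pools, and the 4 Fc receptor and adaptor genes have none.

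The MHC class II genes were open in both pools at all 3 promoters. H2-Aa, the alpha chain of the I-A molecule, had 2.37 in replicate 1 and 3.76 in replicate 2 (3.06 ± 0.981, SD, n = 2). H2-Ab1, the beta chain, had 1.07 and 1.47 (1.27 ± 0.283, SD, n = 2). Cd74, the invariant chain that escorts class II molecules, had 1.14 and 1.06 (1.10 ± 0.0521, SD, n = 2). H2-Aa was thus the most open of the 3 in each pool, near the middle of all open promoters, at the percentiles 42.2 and 49.5. The promoter DNA from the outer edge of the peaks to the start site is shown for both chains because the Y box (GATTGG) lay in the peak of each, and the X-box core (GTTGCC, here as its complement GGCAAC) in that of H2-Aa. Capitals mark these matches, and the sequences are those of the RefSeq GRCm38 assembly.
H2-Aa promoter (chr17:34287824-34288000, minus strand): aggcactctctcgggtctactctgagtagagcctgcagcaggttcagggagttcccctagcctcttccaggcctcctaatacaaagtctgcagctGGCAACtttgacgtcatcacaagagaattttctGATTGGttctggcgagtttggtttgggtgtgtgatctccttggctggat
H2-Ab1 promoter (chr17:34263061-34263208, plus strand): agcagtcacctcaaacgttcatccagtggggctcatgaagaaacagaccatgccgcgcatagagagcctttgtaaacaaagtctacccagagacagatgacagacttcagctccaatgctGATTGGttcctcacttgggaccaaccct
The authors' footprints, short stretches protected from cleavage, overlapped both marked matches of H2-Aa in both pools. At H2-Ab1 a footprint overlapped the Y box in replicate 2 and none did in replicate 1. Among genes with a promoter peak in either pool, the Y box was in 5 of 19 members and in 29.3% of 14524 genes, and the X-box core in 2 of 19 and in 24.8%. A single peak held both motifs in 1 of 19 members and in 4.33% of genes. A match is a description of the letters and not of a bound factor.

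Open regions also lay between and inside the class II genes. An intronic region of the H2-Ab1 record at -1518 from the nearest H2-Ab1 start site (chr17:34261561-34261820) had 2.18 and 2.49. A region at -8458 from H2-Aa (chr17:34296161-34296400) had 1.91 and 2.29. Within 50 kb, 7 shared distal regions lay near H2-Ab1 and 6 near H2-Aa, of which 5 were the same regions. A shared region is a merged stretch holding a peak of each pool, and a distal region is one with no annotated start site within 1 kb. Cd74 had 3 intronic regions, at 1166, 2845 and 3608 bases from its start site. Their signals were 0.951 and 0.751, 0.691 and 0.927, and 0.528 and 0.368 in replicates 1 and 2. The H2 and Fcgr genes have close relatives in the genome, and the mice carry a CAST/EiJ genome beside the reference strain's. How reads that fit several places or carry CAST/EiJ alleles were handled is not stated, so the values of these families are uncertain.

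The 3 complement genes, whose chains form the recognition molecule C1q and which resident macrophages express, were weakly open in both pools. C1qa had signals of 0.609 and 0.512 (0.560 ± 0.0691, SD, n = 2). C1qb had 0.624 and 0.512 (0.568 ± 0.0796, SD, n = 2). C1qc had 0.476 and 0.568 (0.522 ± 0.0650, SD, n = 2). The 3 means lay within 1 SD of each other, and each promoter was between the percentiles 6.44 and 10.3 of open promoters. None of the 3 reached an FDR of 0.001 in either pool, and the lowest FDR was 0.00139, at C1qc in replicate 2. The promoter stretches are shown because the 3 genes share a level and a cluster on chromosome 4. No searched motif, matched by exact letters, was in all 3 stretches. Capitals mark a MAF core (TGCTGAC) in C1qa and the complement of a PU.1 match (GAGGAAGT) in C1qc. C1qb held no exact match to the 7 motifs searched. Exact letters miss variant sites, so whether the 3 stretches share a variant site was not tested.
C1qa promoter (chr4:136898804-136898974, minus strand): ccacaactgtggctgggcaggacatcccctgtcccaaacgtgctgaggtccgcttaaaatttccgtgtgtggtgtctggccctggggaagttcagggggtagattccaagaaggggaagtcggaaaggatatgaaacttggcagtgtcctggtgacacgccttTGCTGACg
C1qb promoter (chr4:136886188-136886364, minus strand): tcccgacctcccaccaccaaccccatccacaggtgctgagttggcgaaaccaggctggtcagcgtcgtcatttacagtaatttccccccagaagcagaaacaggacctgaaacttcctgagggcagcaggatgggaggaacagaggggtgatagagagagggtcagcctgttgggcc
C1qc promoter (chr4:136893066-136893172, minus strand): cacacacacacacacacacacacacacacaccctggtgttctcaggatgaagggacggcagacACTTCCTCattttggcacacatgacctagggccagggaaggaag
A footprint of replicate 2 overlapped the PU.1 match of C1qc, and none did in replicate 1. The whole C1qc stretch shown, with that match, lay outside the narrower C1qc peak of replicate 1. That peak was downstream of the start site, with its midpoint at 84 bases. No footprint overlapped the MAF match of C1qa. All 3 genes had the same 3 distal regions within 50 kb, from -8452 to -30326 relative to C1qa, with signals between 0.483 and 0.646 in replicate 1 and between 0.552 and 0.927 in replicate 2. A further region was counted for C1qb alone (1.58 and 2.48) and lay nearest to Ephb2.

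Of the 3 transcription factor genes, Maf and Irf8 were open in both pools, and Maf had the strongest promoter peak of any member in each pool. Maf had promoter signals of 4.35 and 5.70 (5.02 ± 0.956, SD, n = 2), at the percentiles 65.7 and 66.9. Irf8, which directs monocyte and dendritic cell fate, had 2.30 and 3.24 (2.77 ± 0.660, SD, n = 2). Spi1 had a promoter peak in replicate 1 alone, with a signal of 0.669 and a midpoint at 610 bases from the start site. Both Maf and Irf8 are also expressed outside the myeloid lineage, and the cell type behind an open promoter was not measured.

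Spi1 had 6 shared distal regions despite its sparse promoter. The strongest, here and below by the mean of the pools, lay at 19145 bases from the start site in an exon of Spi1, nearest to the start site of Mybpc3, and had 3.77 and 6.01, at the percentiles 98.2 and 99.1 of all shared distal regions. An intronic region at 5495 bases had 2.33 and 2.67, and another at 2265 bases had 0.684 and 1.14. A region at -13039 (chr2:91082941-91083172) had 0.803 and 0.887. Spi1 is known for an autoregulatory enhancer upstream of its promoter, and whether this region is that element was not examined. Irf8 had a pair of intronic regions, at 12115 bases (1.55 and 1.37) and at 13602 bases (2.99 and 3.21). The weaker of them held a PU.1 match that a footprint overlapped in both pools. Maf had 1 distal region, at -1817, with 1.40 and 1.97.

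Among the 12 receptors and adhesion molecules, 4 had a promoter peak in both pools, 2 in replicate 1 alone and 6 in neither. Mertk, a receptor for the engulfment of dying cells, had 2.29 and 2.55 (2.42 ± 0.185, SD, n = 2). Cd14, the co-receptor for bacterial lipopolysaccharide, had 1.05 and 1.29 (1.17 ± 0.169, SD, n = 2). Mrc1, the mannose receptor, had 0.424 and 0.288 (0.356 ± 0.0960, SD, n = 2). Itgam, an integrin alpha chain of macrophages and granulocytes, had 0.305 in replicate 1 at -2 from a start site and 0.360 in replicate 2 at 931 bases, so the pools did not share one place. Both Itgam peaks also lay within 1 kb of a start site of the predicted gene Gm49368.

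Cx3cr1, the fractalkine receptor, had a promoter peak of 0.372 in replicate 1 and none in replicate 2. That peak also lay within 1 kb of a start site of another gene, Gm33858. Ptprc, the leukocyte common phosphatase, had 0.268 in replicate 1 and none in replicate 2. Csf1r, Adgre1, Ccr2, Cd163, Msr1 and Timd4 had no promoter peak in either pool. Adgre1 encodes a macrophage surface protein used as a marker, Ccr2 the receptor that recruits monocytes, Cd163 the haemoglobin scavenger, Msr1 a scavenger receptor and Timd4 a receptor for phosphatidylserine. Of these 6, Timd4 alone had any listed FDR under 0.05 in its promoter window, 0.0351 in replicate 2 over 16 bases.

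Several receptor genes held shared open regions inside the gene, among them Csf1r and Timd4, which had no promoter peak. The regions listed are the shared distal regions within 50 kb. Counted over the whole gene body, Mertk held 6 shared regions, Ptprc 3 and Mrc1 2. Csf1r had an intronic region at 2809 bases from its nearest start site (chr18:61108481-61108840), with 0.966 in replicate 1 and 0.671 in replicate 2 and a MAF core. A second intronic region at 21829 bases had 1.19 and 2.20. Csf1r is known for an enhancer in an early intron, and whether the region at 2809 bases is that element was not examined. Cx3cr1 had 8 shared distal regions, the strongest at 18702 bases in an exon with 1.85 and 2.70. Ptprc had intronic regions at 16134 bases (0.349 and 0.240) and at 38666 bases (0.505 and 0.703). Timd4 had 1 region, at 9321 bases in an intron, with 0.334 and 0.384. Mrc1 had 1, at 9939 bases in an intron, with 0.572 and 0.544. Mertk had 5 intronic regions between 5765 and 47775 bases, with signals from 0.646 to 1.08 in replicate 1.

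For the other receptor genes all shared distal regions within 50 kb but 1 lay outside the gene. Itgam also had 1 shared region in its gene body that is not among these. Adgre1 had 4 regions between -22810 and -30860, the strongest with 2.07 and 3.25 inside an exon of Vav1. Ccr2 had 2. Cd163 had 3 between -31198 and -43905, the strongest with 0.490 and 0.520. Msr1 had 3, the strongest with 0.342 and 0.448 at -31658 and 1 in an exon of Msr1 with 0.253 and 0.256. Itgam had 1 shared distal region, with 0.973 and 1.14 at -37469. The regions of Ccr2, Cd163 and Msr1 were all below the medians of 0.721 and 0.915 for shared distal regions.

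**Figure D2:**
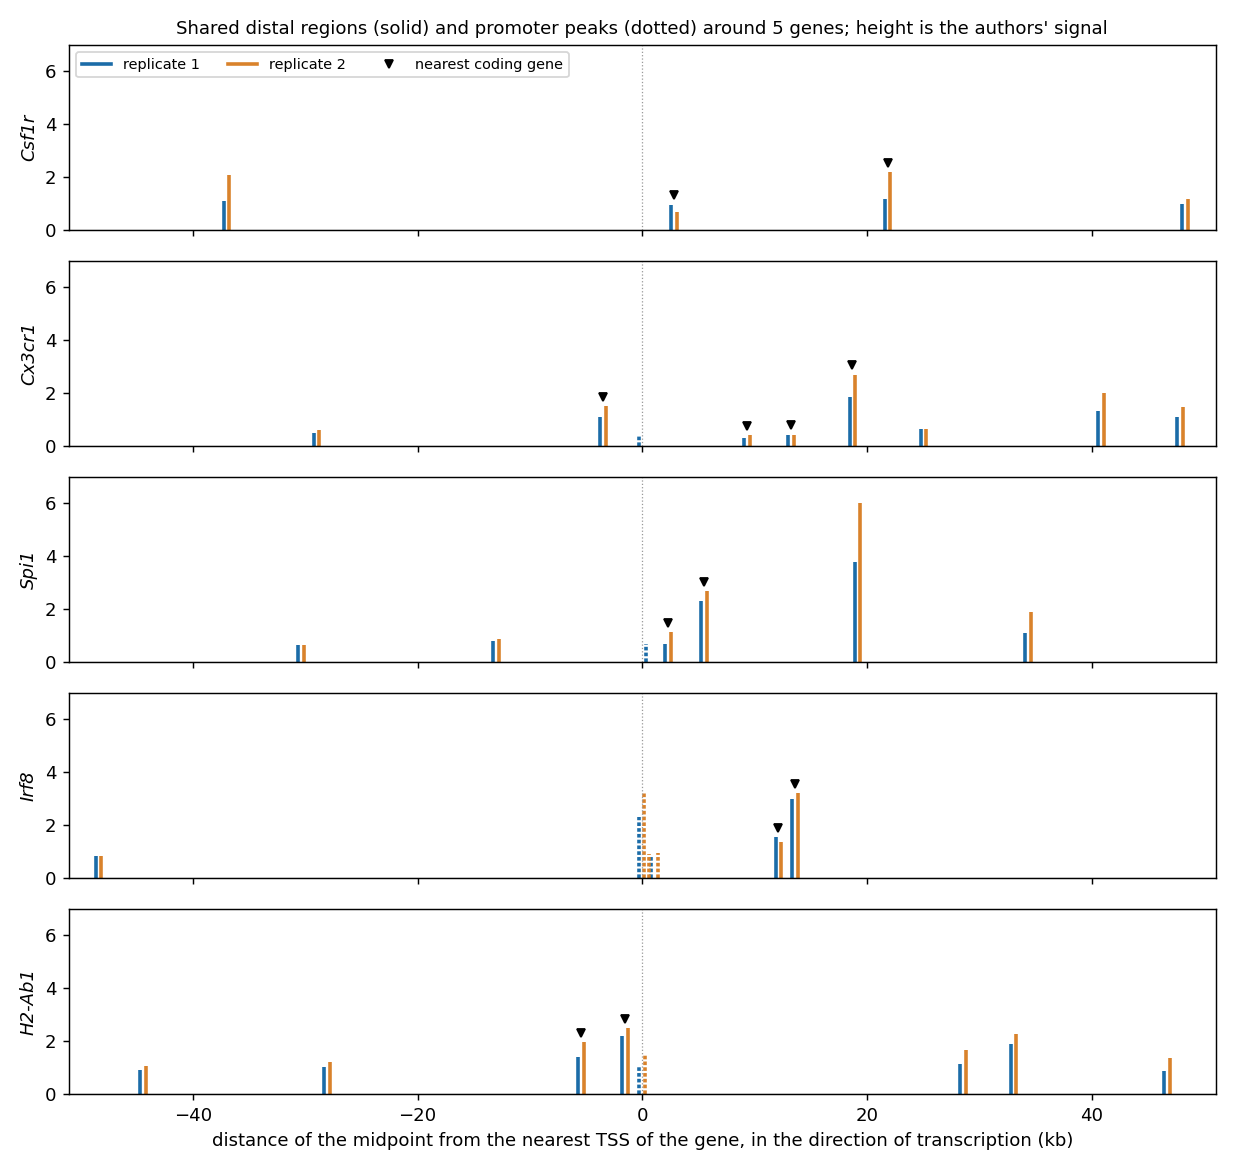
Shared distal regions (solid bars) and promoter peaks (dotted bars) within 50 kb of Csf1r, Cx3cr1, Spi1, Irf8 and H2-Ab1, by distance of the midpoint from the nearest start site in kb; bar height is the authors' signal in replicate 1 (left) and replicate 2 (right), and a triangle marks regions whose nearest coding start site belongs to the gene. Csf1r has no promoter bar but an intronic region at 2809 bases, and the highest bars belong to the exonic region of Spi1 (3.77 and 6.01).

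None of the 4 Fc receptor and adaptor genes had a promoter peak. Fcgr1 and Fcgr3, receptors for immunoglobulin G, had no listed FDR under 0.05 in the promoter window. Fcer1g, the shared signalling chain of Fc receptors, had a lowest FDR of 0.0256, and Tyrobp, an adaptor of activating receptors, one of 0.0331, both in replicate 2 alone. Fcer1g had 12 shared distal regions and Fcgr3 11, the highest counts among the members, beside a median of 3 over all protein-coding genes. The strongest near Fcer1g had 2.08 and 3.15 and lay nearest to Tomm40l, and the strongest near Fcgr3 had 3.17 and 5.16 and lay nearest to Cfap126. Of the 12 regions of Fcer1g 4 had it as the nearest coding gene, and of the 11 of Fcgr3 2 did. Fcgr1 had 1 region (3.76 and 5.11), nearest to the histone gene Hist2h2bb. Tyrobp had 3, the strongest with 4.25 and 4.72 nearest to Lrfn3.

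The 5 lysosomal and cytoplasmic genes were split. Cd68, a lysosomal membrane glycoprotein, had promoter signals of 1.14 and 1.26 (1.20 ± 0.0783, SD, n = 2). Lyz2, lysozyme of macrophages, had 0.357 and 0.280 (0.318 ± 0.0544, SD, n = 2). Laptm5, a lysosomal protein of blood cells, had 0.468 in replicate 1 and none in replicate 2. Ctss, the protease that trims the invariant chain, had 0.272 in replicate 2 and none in replicate 1. Aif1, a calcium-binding cytoplasmic protein used as a macrophage marker, had no promoter peak and no listed FDR in either pool. Laptm5 had 6 shared distal regions, the strongest at -34384 with 1.97 and 3.45. Aif1 had 5, the strongest (5.61 and 6.70) in an intron of Bag6. Cd68 had 5, the strongest with 2.27 and 4.02, and all 5 had another gene as the nearest. Ctss had 5, the strongest at -9125 with 0.825 and 1.76, and Lyz2 had 1 weak region (0.238 and 0.368). In replicate 1 alone another region was the strongest near Laptm5, Cd68, Ctss, Fcgr3 and Fcer1g.

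The pools differed at several of the weak promoters. The peak lists held 117371 peaks in replicate 1 and 146307 in replicate 2, and promoter signal was usually higher in replicate 2, with a median log2 ratio of replicate 2 to replicate 1 of 0.38 over all genes and 0.20 over the 14 members. Signal was higher in replicate 1 for 5 of the 14 members (C1qa, C1qb, Cd74, Lyz2 and Mrc1), against 4.55% of all genes with a promoter peak in both pools. All 5 had a mean signal under 1.5. Among the 10 members under that level 5 were higher in replicate 1, against 15.7% of 3048 genes. A promoter peak in replicate 1 alone occurred in 4 of the 30 members (Spi1, Laptm5, Cx3cr1 and Ptprc), against 1.01% of all genes. One in replicate 2 alone occurred in 1 of the 30 (Ctss), against 3.37%. Of 10 members with a replicate 1 signal under 0.75, 4 had no promoter peak in replicate 2, against 11.5% of such genes. Of 7 members with a replicate 2 signal under 0.75, 1 had none in replicate 1, against 36.9%. These levels were chosen after the values were seen. With the same number of peaks taken from each pool, 18 members had a promoter peak in replicate 1 and 11 in replicate 2. The share of all genes was not counted in that setting, so the members' fall in replicate 2 cannot be set against a background.

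**Figure D3:**
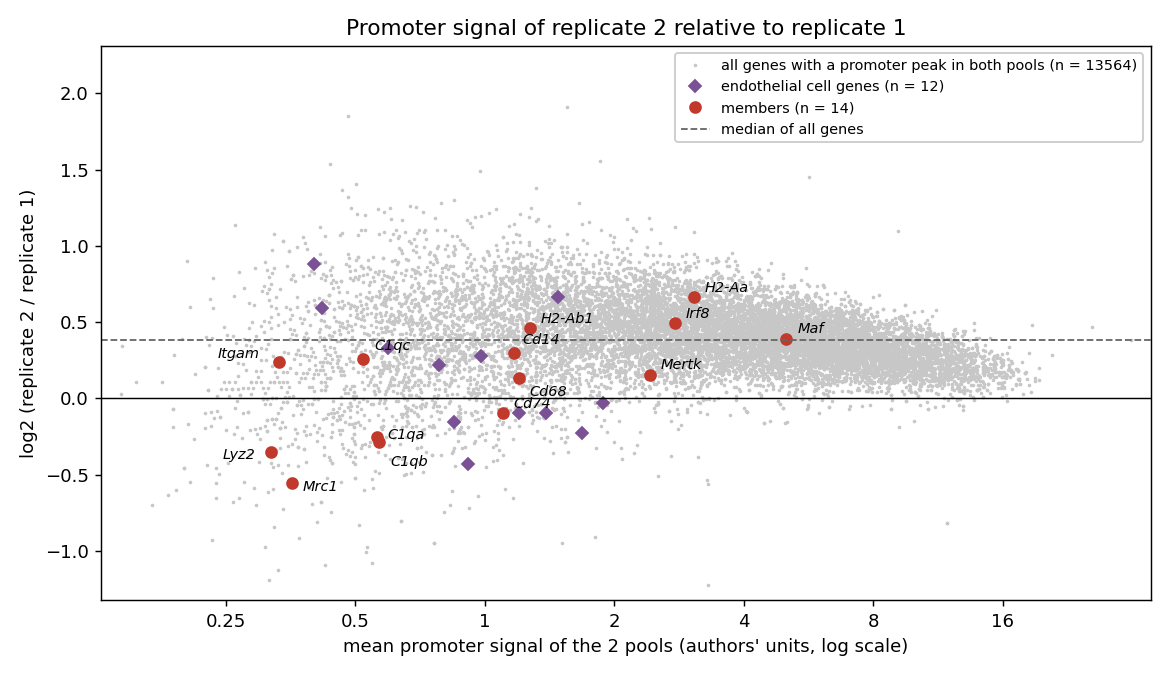
Log2 ratio of promoter signal in replicate 2 to replicate 1 against the mean signal of both pools (log axis) for all 13564 genes with a promoter peak in both (grey), the 14 members (circles) and 12 endothelial cell genes (diamonds); the dashed line is the median of all genes, 0.38. C1qa, C1qb, Cd74, Lyz2 and Mrc1 lie below 0.

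Genes of other cell types were read the same way, as values beside this pattern. Of 12 endothelial cell genes with a promoter peak in both pools, 6 had more signal in replicate 1 (Cdh5, Egfl7, Esam, Robo4, Sox18 and Tie1). Of 14 other myeloid cell genes with one in both pools 1 did (P2ry12), of 14 myeloid transcription factor genes 3 (Fli1, Ikzf1 and Nr1h3), of 10 adrenal cortex genes 1 (Cyp21a1) and of 9 chromaffin cell genes 1. Of the other myeloid genes 2 had a promoter peak in replicate 1 alone (Itgb2 and Lyve1) and none in replicate 2 alone. The part of cell makeup in the difference between the pools was not tested. These genes were picked out after their values were seen.

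The members' promoters were mostly poor in CpG. The CpG ratio is the observed over the expected number of CpG dinucleotides from 250 bases before to 50 after a start site, at the start site with the highest ratio. It was under 0.5 in 26 of the 30 members. Of these 26, 11 (42.3%) had a promoter peak in both pools, against 22.9% of the 8986 genes with such promoters. Of the 4 with a higher ratio 3 did (Maf, Irf8 and Mertk, but not Spi1), against 89.0% of 12925 genes. Among CpG-poor promoters the members' share with a promoter peak was thus above that of all genes, while over all promoters it was below. A cleavage FDR of 0.001 or lower in both pools was listed for 4 of the 26 CpG-poor members (15.4%), against 18.2% of the 8986 genes. By that stricter measure the members' share among CpG-poor promoters was not above that of all genes. The open CpG-poor members were weak, with median signals of 0.624 and 0.568 against 1.16 and 1.51 for all open CpG-poor promoters. Across the 14 members the CpG ratio and the mean signal had a Spearman rho of 0.58, and across all 13564 genes 0.33, over promoters that share their libraries.

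**Figure D4:**
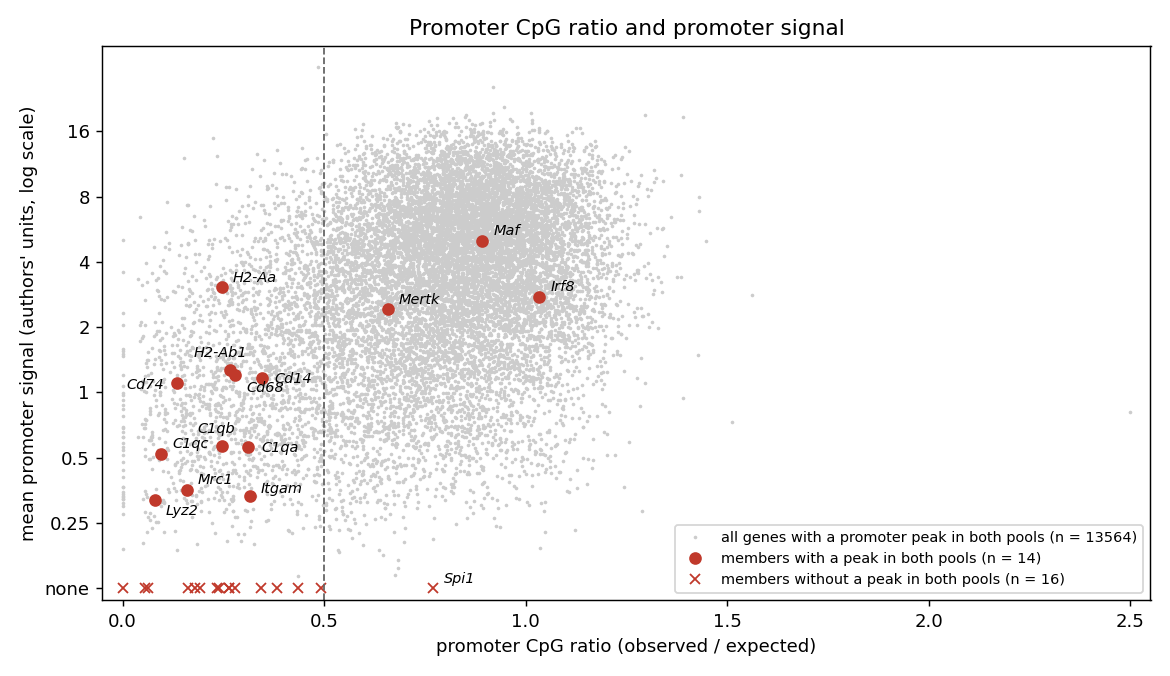
Mean promoter signal (authors' units, log axis) against the promoter CpG ratio for all 13564 genes with a promoter peak in both pools (grey) and the 14 members (circles); crosses at the bottom are the 16 members without one in both pools and the dashed line is a ratio of 0.5. Maf, Irf8 and Mertk are the members with a peak to the right of the line, and H2-Aa is the highest to its left.

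Every member had at least 1 shared distal region within 50 kb, as did 83.7% of all genes. The median was 3.5 regions per member against 3 per gene, so the members' count was near the background. Of the 114 distinct regions 8 lay near more than 1 member, 52 had a member as the nearest coding gene and 31 lay inside a member's gene record. Their median signal was 1.08 in replicate 1 and 1.38 in replicate 2, against 0.721 and 0.915 for all 71494 shared distal regions. Regions inside the members' own records were weaker than the whole set of 114, with 0.803 and 0.887. A shared region inside the gene body, over 1 kb from the gene's own start sites, was present in 15 of the 30 members, against 46.9% of all genes. The record of Cx3cr1 spans neighbouring genes and held 21 such regions, some of them at other genes' start sites. Of the 114 regions 21 (18.4%) had more signal in replicate 1, against 19.2% of all shared distal regions. Of the 31 inside records 9 (29.0%) did.

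Motifs of the macrophage factors were rare in the members' distal regions, at shares near those of all distal regions. Motifs were matched as exact letters on both strands. The PU.1 motif GAGGAAGT was in 4 of 114 regions (3.51%) against 2.43% of all. The IRF motif GAAANNGAA was in 6.14% against 7.28%, the MAF core TGCTGAC in 7.02% against 7.13%, and the C/EBP motif (TTGCGCAA or TTGCACAA) in 0.877% against 1.42%. A general ETS motif, CCGGAAGT, was in none against 0.441%. The AP-1 motif TGACTCA was in 11.4% against 22.8%, and the motif of the adrenal cortex factor NR5A1 (CAAGGTCA or CAAGGCCA) in 10.5% against 15.7%. In promoter peaks the PU.1 motif was in 1 of 19 members against 4.75% of genes and AP-1 in 4 of 19 (Cd14, Irf8, Cd68 and Laptm5) against 11.1%. Exact letters miss variant sites, so a region without a match may still hold a site.

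Of the 4 PU.1 matches, those near Irf8, Tyrobp and Cd163 are shown with up to 60 bases on either side, as examples of the lineage factor's letters in an open region near a member. Capitals mark the motifs searched, in the orientation of the PU.1 match.
Irf8 intronic region (chr8:120750767-120750886, plus strand): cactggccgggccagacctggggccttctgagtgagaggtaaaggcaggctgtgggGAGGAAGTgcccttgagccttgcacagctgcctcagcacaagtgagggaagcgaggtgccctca
Region near Tyrobp (chr7:30394504-30394623, plus strand): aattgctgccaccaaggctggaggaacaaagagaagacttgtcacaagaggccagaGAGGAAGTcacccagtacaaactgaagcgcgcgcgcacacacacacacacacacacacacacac
Region near Cd163 (chr6:124273316-124273411, minus strand): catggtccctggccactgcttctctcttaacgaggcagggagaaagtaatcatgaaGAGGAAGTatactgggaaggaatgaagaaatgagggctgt
Of all 4 matches, a footprint overlapped that of Irf8, in both pools, and none of the other 3. The Irf8 region also held a MAF core and an NR5A1 motif outside the stretch shown. The region near Tyrobp lay between genes at -19297 and had 1.11 in replicate 1 and 1.35 in replicate 2. That near Cd163 lay between genes at -31198, had 0.401 and 0.336 and also held a MAF core outside the stretch shown.

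Per kb of peak, footprints were sparser in the members' promoter peaks than in all promoter peaks. Members' promoter peaks held 39 footprints in 25 peaks in replicate 1 and 47 in 22 peaks in replicate 2, which is 8.07 and 8.89 per kb of peak. All promoter peaks held 11.7 and 11.1 per kb. The members' promoter peaks were also weaker, with median signals of 0.736 and 1.00 against 1.17 and 1.32 for all promoter peaks. Distal peaks near members held 281 footprints in 133 peaks and 331 in 177 peaks, or 10.9 and 9.62 per kb, against 9.68 and 8.80 for all distal peaks. Their median signals were 0.981 and 0.855, against 0.624 and 0.648 for all distal peaks. The part of signal in these densities was not tested. Mertk had 6 promoter footprints in replicate 1 and 11 in replicate 2, Irf8 6 and 10, and Maf 6 and 3. H2-Aa had 4 and 2, H2-Ab1 4 and 5, and Lyz2 none in either pool.

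Related gene lists were counted beside the members. The lists differed in median CpG ratio: 0.263 for the members, 0.278 for adrenal cortex, 0.455 for endothelial, 0.212 for lymphocyte and 0.128 for granulocyte and mast cell genes. The part of CpG in the shares below was not tested. The tissue's own genes were open: a promoter peak in both pools was present in 10 of 11 adrenal cortex genes, led by Fdxr, Mrap, Star and Fdx1, and in 9 of 10 chromaffin cell genes, led by Slc18a1, Gata3, Chgb and Dbh. Endothelial genes had 12 of 14 (Tie1, Egfl7, Flt1 and Esam). Other myeloid cell genes had 14 of 31 (45.2%), close to the members' share, among them Csf2ra, Lyn and Itgax. Lymphocyte genes had 1 of 12 (Lck) and granulocyte and mast cell genes 2 of 13 (Camp and Kit). Of the 11 members without any promoter peak, 8 had no listed FDR under 0.05 in either pool, against 96.6% of all such genes.

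Genes that act with the members were read beside the members' 14 of 30. Of 17 myeloid transcription factor genes, 14 were open in both pools (among them Id2, Irf1 and Cebpa), and many of these act in other cells too. Of 8 genes for ligands of the members' receptors 7 did: Cx3cl1, the ligand of Cx3cr1, had 3.23 and 4.36, Mif 2.50 and 3.62, Csf1, the ligand of Csf1r, 1.80 and 2.57, and Ccl7, a ligand of Ccr2, 1.40 and 1.82. In both pools these promoter peaks of Csf1 and Cx3cl1 stood beside none at Csf1r and, at Cx3cr1, one of 0.372 in replicate 1 alone.

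MHC class I and peptide loading genes, active in most cells, had 12 of 12, led by Calr, Tap1, Psmb9 and Pdia3. Tap1 and Psmb9 share a promoter, with 7.01 and 9.15 at both. Further class II genes and their regulators had 9 of 13. The RFX subunit genes Rfxank, Rfx5 and Rfxap were strong (10.9 and 12.7, 6.29 and 8.44, 3.29 and 5.28), as was H2-DMa (8.63 and 9.23). Ciita, whose product is the class II coactivator, had no promoter peak in replicate 1 and one of 0.296 in replicate 2. H2-Eb1, the beta chain of the I-E molecule, had 3.05 and 4.13, and its promoter peak held the X-box core and the Y box, as that of H2-Aa did. It was 1 of 11 genes of this list with both motifs in 1 peak, beside 3 of 12 class I and peptide loading genes (H2-D1, Tap1 and Psmb9). Ciita and H2-Eb1 were named after their values were seen.

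**Figure D5:**
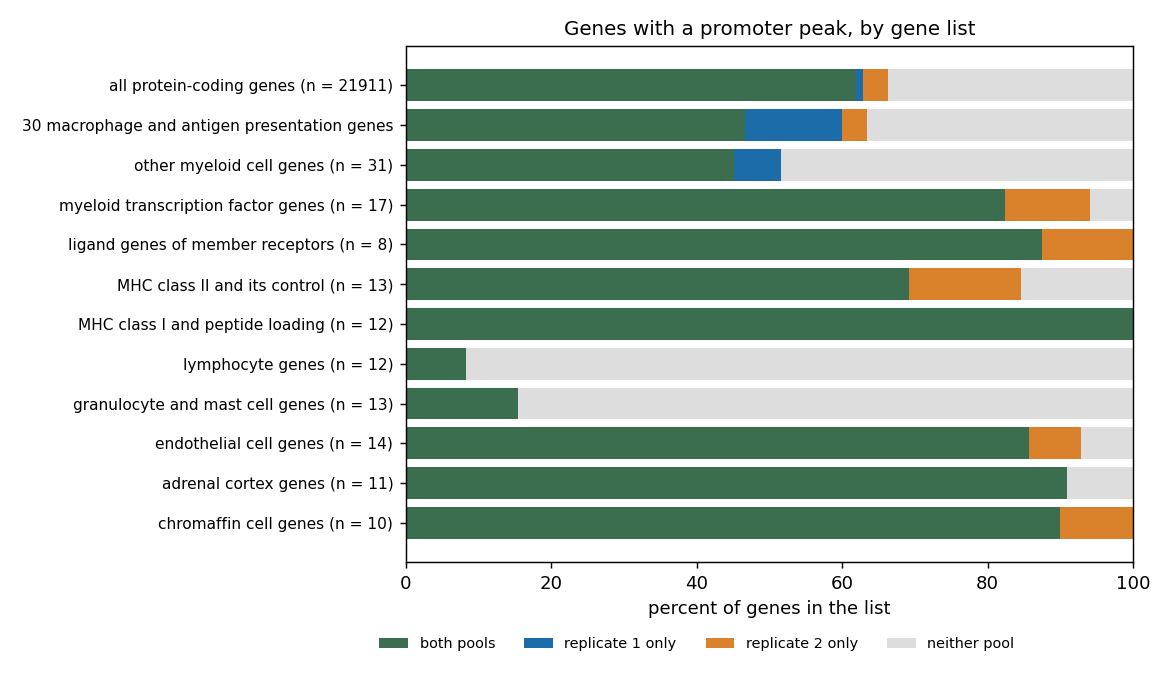
Percent of the genes of each list with a promoter peak in both pools, in replicate 1 only, in replicate 2 only or in neither, with the number of matched genes. The members' bar has 46.7% in both pools beside 61.9% for all protein-coding genes, and the lymphocyte list has the smallest share in both pools (1 of 12).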

How the data were processed

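Open chromatin was measured by DNase-seq in 2 pools of adrenal gland. Per the labels, the authors' files are on mm10. For each pool the authors deposited a longer and a shorter peak list with a signal per peak, a table of FDR, an adjusted p-value, that lists values under 0.05, and footprints whose deposited score is constant. No source used here gives the aligner, the callers, the signal scaling or the depth, so no counting interval could be given.

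Peaks of the longer list (117371 and 146307) were set against GENCODE M21 basic on 21911 protein-coding genes by overlap of at least 1 bp, using Python 3.11.15, numpy 2.4.6 and pandas 2.3.3, and plotted with matplotlib 3.10.9. A gene's promoter signal is the highest of its promoter peaks. Distal regions within 50 kb count for each gene with a start site in reach, so 1 region can count for several genes. The counting was tested on simulated peaks. Of 143 other listed genes in 10 lists, 141 matched by symbol. Members and lists were chosen with earlier results of these data known. The signal levels of 0.75 and 1.5 were chosen after the data were seen. A few items are not reported here. All 30 members are described, and of each other list up to 4 genes with the highest mean promoter signal are named, with further ones said to be named after their values were seen. The alternatives were the shorter list, other windows, distances and start sites, the peaks with the most signal, equal numbers of peaks, and each pool alone.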

Additional observations from a re-analysis of the deposited data

How the results depend on the processing

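Of 57 alternatives to the counts and medians, 42 stayed within 1.5 times the reported count or within the SD between the pools, and 15 did not. With the authors' shorter list the members with a promoter peak fell to 7 in both pools, 7 in replicate 1 and 7 in replicate 2, with a median signal of 2.42 in place of 1.13 because the weak peaks drop out, and the median number of distal regions was 2. With the upper 50% of peaks by signal, the members with a promoter peak were 8 in both pools, 8 in replicate 1 and 8 in replicate 2, and the median number of distal regions was 2. The counts over all genes were not made for either setting. The median number of distal regions was 1.5 within 25 kb and 8 within 100 kb, by construction. The share of distal regions with a PU.1 motif was 0.877% where the motif had to lie within 75 bp of the midpoint. That share was not computed over all distal regions. Members with an FDR under 0.05 in both pools numbered 14, against 7 at 0.001 or lower. The count over all genes was not made at 0.05, so the 14 cannot be set against a background.

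With each pool alone, the median number of distal regions ranged from 4 to 6, and the share with a PU.1 motif from 3.76% to 5.65%. Neither was computed over all genes or all distal regions of a single pool, so these values have no background. Promoter signals of single members moved by more than the SD between the pools in 3 of 61 cases: Mertk to 2.23 with a promoter of 500 bp, and Cd68 to 1.80 and H2-Ab1 to 2.34 with one of 2 kb. Distal regions chosen by midpoint (median 4) and overlapping promoter peaks (13 members) were alternatives added after seeing the data. No paired analysis was possible because there is 1 group of 2 pools and no contrast. Depth is unknown, so a promoter without a peak was not detectable as open here, which does not show that it is closed.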
